A study of Mus musculus with 6 samples.

Results

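The 10 genes described here mark natural killer (NK) cells and cytotoxic T cells, and they were read in the hearts of mice labelled *Clk4*-cKO. They are 6 genes of the killing granule (*Nkg7*, *Gzma*, *Gzmb*, *Gzmk*, *Prf1* and *Ctsw*) and 4 genes of NK receptors (*Klrd1*, *Klrk1*, *Klrb1c* and *Ncr1*). The members were taken by gene symbol, and every probe of these 10 genes was kept. This gave 15 of the 56605 non-control probes on the array, which carry 27307 gene symbols. Of the 15 probes, 7 probes of 7 genes stood clear of background in every heart of 1 group or both, which was the condition for a test, and were tested among 22998 probes in all.

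Both groups were labelled as male C57BL/6J *Clk4*-cKO mice, and each heart was hybridised to its own single-colour array. In these mice tamoxifen activates MerCreMer, a Cre recombinase driven by the α-MHC promoter of cardiomyocytes, which deletes floxed *Clk4*. One group of 3 animals received AAV NEXN-WT, an AAV9 vector for the unmutated cardiac protein NEXN, and the other group of 3 animals received AAV NEXN-S437E, in which glutamate replaces a serine to mimic its phosphorylation. Both vectors were injected into a vein and expressed NEXN and GFP from a CMV promoter, which is not restricted to the heart. Mice with intact *Clk4*, and mice without vector, were not analysed here.

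Cytotoxic lymphocytes kill target cells by releasing granules at the point of contact. Perforin opens the way into the target cell, granzymes cleave proteins inside it, and lectin-like and immunoglobulin-like surface receptors decide whether NK cells fire. CD8 T cells carry the same granule proteins and several of the same receptors, so only a few of these genes separate the cell types. Such cells are a small part of an uninjured heart and enter it during inflammation.

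Values are log2 signals relative to the 75th percentile of their own array, so that a difference of 1 is a doubling. Between 41.9% and 47.8% of the spots on an array lay well above background. The array of NEXN-WT replicate 1 stood apart, with a mean absolute log2 distance of 0.38 and 0.44 to the other NEXN-WT arrays, which lay 0.25 from each other. The *Clk4* probe A_52_P445387, detected on all 6 arrays, differed by 0.13 on the log2 scale (SE 0.18, where SE is the standard error of the fit, with a Benjamini-Hochberg adjusted p of 0.706). It was not placed relative to the deleted exons and so does not check the deletion, and the other *Clk4* probes, detected on 1 or 2 arrays of each group, were not tested. The *Esr1* probe A_55_P2030883 had values of 3.13, 5.82 and 5.21 in the hearts labelled NEXN-WT and of −5.30, −5.63 and −5.41 in those labelled NEXN-S437E, where no array detected it. Its level was at least 255-fold lower there (limma adjusted p = 0.00114). *Esr1* encodes the estrogen receptor whose ligand-binding domain is part of MerCreMer, and the labels give both groups the same *Clk4*-cKO genotype. The arrays therefore do not show that the NEXN-S437E hearts carried MerCreMer or had lost *Clk4*, and the genotype is given here as labelled. The AAV and this difference cannot be told apart in any comparison below, and the part of the latter in the results was not tested.

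The markers of NK cells did not give a single picture. *Ncr1*, the receptor NKp46, and *Klrb1c*, the NK1.1 antigen of C57BL/6 mice, were not well above background on any of the 6 arrays. The *Ncr1* probe read −6.06, −5.72 and −5.76 with NEXN-WT and −5.21, −5.79 and −5.53 with NEXN-S437E. Among the 12 other NK markers listed, 6 genes were detected on no array, including *Itga2* and *Klrc1*, and *Eomes* was detected on 1 NEXN-WT array. *Klra8*, the activating receptor Ly49H, was detected on all 6 arrays at A_55_P2742960 and on 5 of 6 at each of its other 2 probes, with log2 fold changes of 0.03, 0.06 and 0.28 and no call. Receptors of this family are closely alike in sequence, so its probes may also read relatives. *Cd244*, for the receptor 2B4, was detected on all 6 arrays at 1 of its 3 probes (0.26, not called). Of the 10 tested probes on this list 2 were called lower, both of *Il2rb*, and 2 higher, both of *Gzmm*. Since *Ncr1* and *Klrb1c* were below background, the genes are described below as cytotoxic effector genes. Levels below background are not the same as absence, since few cells of a type in a whole heart can leave a signal too dim to separate from it.

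**Figure D1:**
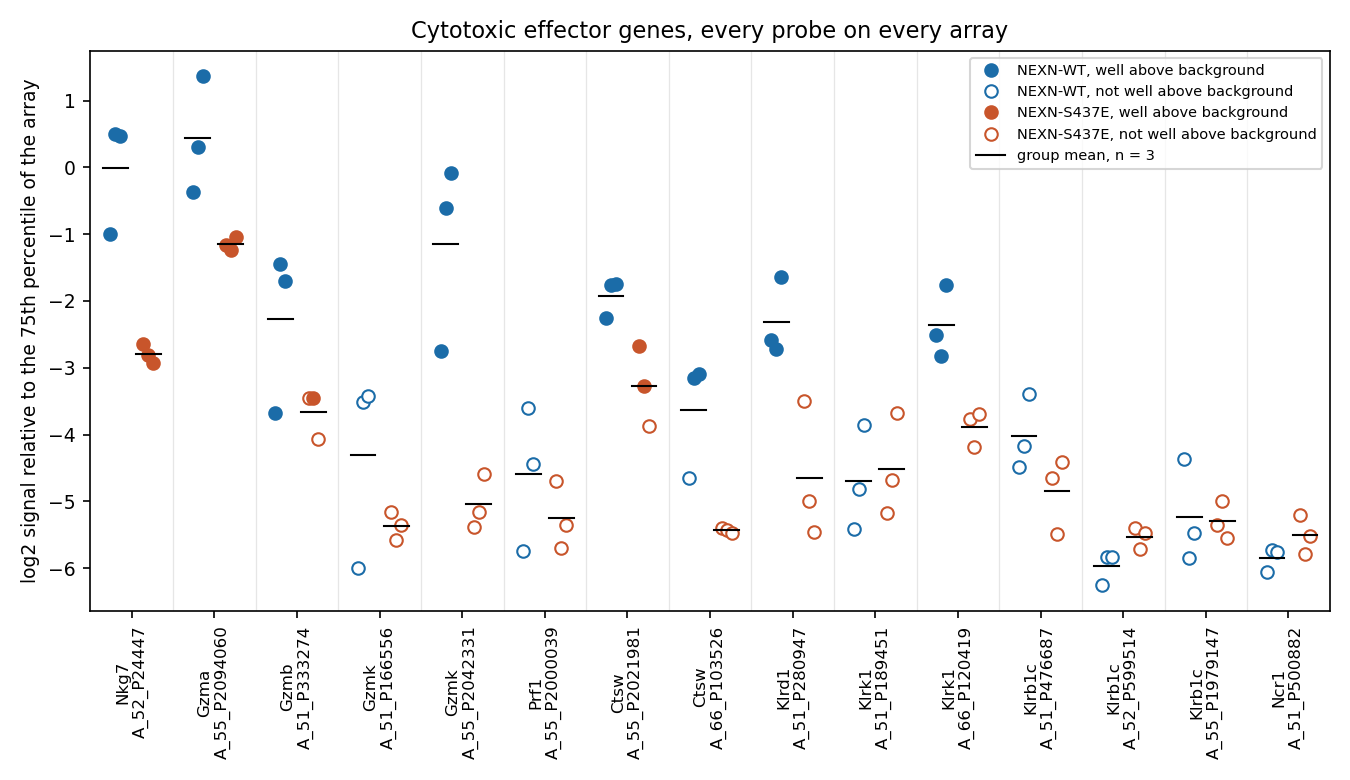
Each column is 1 probe of the 10 genes, and each point is 1 array (3 NEXN-WT, 3 NEXN-S437E) on the vertical axis of log2 signal relative to the 75th percentile. Filled points were well above background, open points were not, and lines are group means. The left columns show 2 genes with filled points on all 6 arrays, *Nkg7* and *Gzma*, while *Prf1*, *Klrb1c* and *Ncr1* at the foot of the plot have only open points.

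Detection itself differed between the groups. Of the 45 pairs of a member probe and an array in each group, 23 were well above background with NEXN-WT and 9 with NEXN-S437E. Between 7 and 8 member probes were detected on each NEXN-WT array and between 2 and 4 on each NEXN-S437E array. Over all probes the share detected was similar in both groups, between 41.9% and 45.4% of probes with NEXN-WT and between 39.3% and 43.2% with NEXN-S437E. The dimmest detected probe lay at −4.00, −3.56 and −3.55 on the NEXN-WT arrays. It lay higher on the NEXN-S437E arrays, at −3.08, −3.50 and −3.23, so a dim probe could be missed there more easily. *Gzmb* was detected at −3.68 in NEXN-WT replicate 1 and not at −3.46 in NEXN-S437E replicate 1. The part of this in the detection counts was not tested. *Nkg7* and *Gzma* were the genes detected in every heart. The other 5 tested probes entered the test through the NEXN-WT group alone, so that this condition itself favoured lower readings in the other group, and the counts that follow describe the probes and do not test the list.

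All 7 tested member probes were called lower with NEXN-S437E at a 2-fold change and an unadjusted p under 0.05, and none was called higher. Over all 22998 tested probes, 1.78% were called lower by this rule. The groups did not overlap for 6 of the 7 probes, against 9.17% of all tested probes that were lower without overlap. At the adjusted p, 1 member probe, *Nkg7*, was called lower, against 0.130% of all tested probes. The median log2 fold change of the 7 probes was −1.58, and that of all tested probes was 0.09. In bulk tissue, fewer cells of a type and less RNA per cell cannot be told apart.

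**Figure D2:**
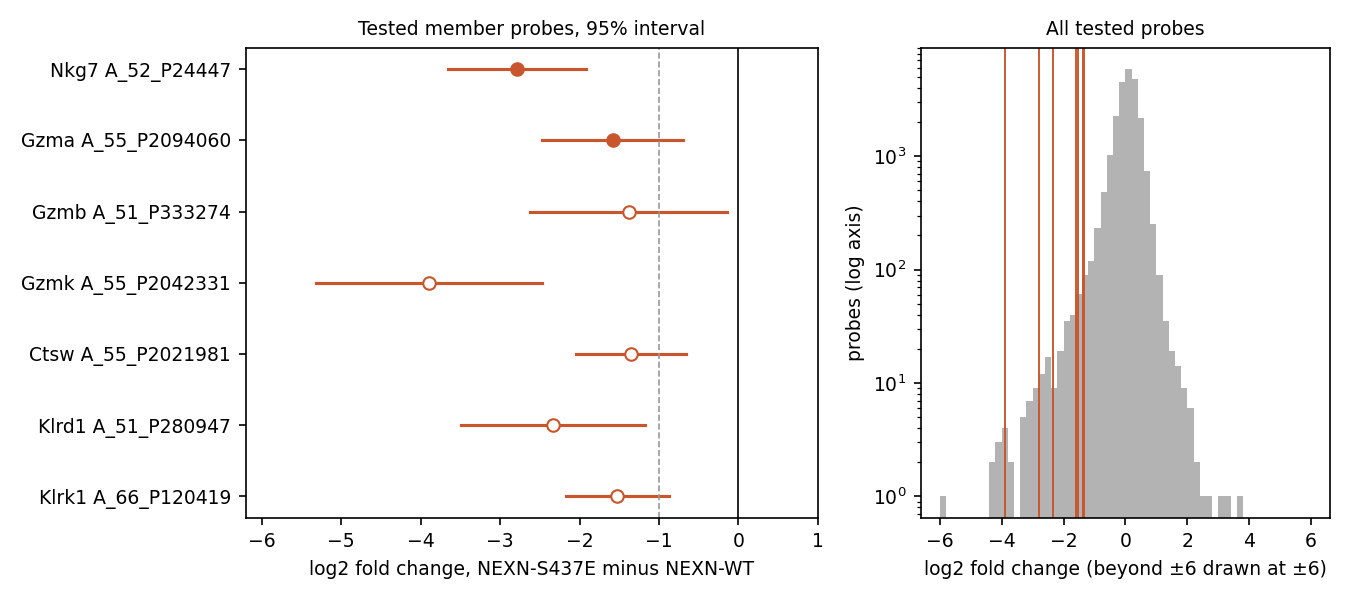
The left panel plots the log2 fold change of the 7 tested member probes with its 95% interval from limma, filled where the probe was detected on all 3 NEXN-S437E arrays. A dashed line marks the 2-fold threshold. The right panel is the histogram of all 22998 tested probes on a log axis of probe number, with a vertical line at each member's value. All 7 intervals lie below 0, and the fitted fold changes run from −3.90 for *Gzmk*, which no NEXN-S437E array detected, to −1.35 for *Ctsw*.

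The granule genes are described first. *Nkg7* encodes a membrane protein of the cytotoxic granule that takes part in its release. Its probe A_52_P24447, on chromosome 7 of mm9 from 50693482 to 50693541, read −0.99, 0.49 and 0.47 in the NEXN-WT hearts and −2.64, −2.81 and −2.93 in the NEXN-S437E hearts. The NEXN-S437E hearts lay close together, all below the lowest NEXN-WT heart, and the NEXN-WT hearts were spread over a much wider range. The mean was −0.01 ± 0.85 (SD, n = 3) with NEXN-WT and −2.80 ± 0.14 (SD, n = 3) with NEXN-S437E. *Nkg7* thus fell by 2.79 on the log2 scale (SE 0.38, 95% interval −3.66 to −1.92), a level 6.90-fold lower. The adjusted p was 0.0485 in limma, close to the threshold, and leaving out any array but NEXN-WT replicate 1 raised it above the threshold, to between 0.0824 and 0.170. Over all alternatives it ranged from 7.08e-04 to 0.350. The exact permutation test gave p = 0.1, the smallest that 3 against 3 arrays allow.

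Granzyme A, encoded by *Gzma*, is a serine protease with tryptase activity. Its probe A_55_P2094060 (chromosome 13, 113884035 to 113884094) read −0.37, 0.31 and 1.37 with NEXN-WT and −1.17, −1.24 and −1.04 with NEXN-S437E. The NEXN-S437E hearts lay close together, and the groups did not overlap. The log2 fold change was −1.58 (SE 0.38), a 3.00-fold lower level that did not pass the adjusted p (0.135 from limma).

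*Gzmb* encodes granzyme B, which cuts after aspartate and starts apoptosis through caspases. Its probe A_51_P333274 (chromosome 14, 56877916 to 56877975) read −3.68, −1.45 and −1.70 with NEXN-WT and −3.46, −3.45 and −4.06 with NEXN-S437E. NEXN-WT replicate 1 lay among the NEXN-S437E hearts, so that this was the tested member with overlap. The probe was detected in every NEXN-WT heart and in 1 NEXN-S437E heart, so its fold change rests in part on readings below background. The log2 fold change of −1.38 (SE 0.54) had an adjusted p of 0.257 from limma, and the exact permutation p was 0.3. Without NEXN-WT replicate 1 the log2 fold change was −2.08, with an adjusted p of 0.0256, and without NEXN-WT replicate 2 it was −0.97. The adjusted p ranged from 0.0256 to 0.673 over all alternatives.

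*Gzmk* is the gene of granzyme K. Its probe A_55_P2042331 (chromosome 13, 113961816 to 113961875) read −2.75, −0.61 and −0.08 with NEXN-WT and −5.38, −5.16 and −4.59 with NEXN-S437E. It was detected in every NEXN-WT heart and in no NEXN-S437E heart, without overlap. With NEXN-S437E the level was lower by a factor of at least 4.36, written below as at least 4.36-fold lower, and the fitted log2 fold change of −3.90 (SE 0.62) rests on readings below background in that group. The adjusted p was 0.0765 from limma and 0.00358 without NEXN-WT replicate 1, in a range of 0.00284 to 0.350 over all alternatives.

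Another *Gzmk* probe gave a different picture. A_51_P166556 lies 284 bases from the start of the bright probe on the same chromosome and was detected in no heart. It read −6.00, −3.52 and −3.42 with NEXN-WT and −5.16, −5.58 and −5.36 with NEXN-S437E. These readings lie below background, and no order is drawn from them.

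*Ctsw* encodes cathepsin W, a cysteine protease of NK cells and CD8 T cells. Probe A_55_P2021981 (chromosome 19, 5465315 to 5465374) read −2.25, −1.76 and −1.75 with NEXN-WT and −2.67, −3.28 and −3.87 with NEXN-S437E. The groups did not overlap, and the gene stayed detected in 2 of the NEXN-S437E hearts. The log2 fold change was −1.35 (SE 0.30, limma adjusted p = 0.131). Probe A_66_P103526 of the same gene was detected in 2 NEXN-WT hearts and was not tested. It read −4.66, −3.16 and −3.10 against −5.39, −5.43 and −5.48, and no order is drawn from it, since no NEXN-S437E array detected it and no bound of a lower level follows.

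*Prf1*, the gene of perforin, had 1 probe on the array (A_55_P2000039), which was detected in no heart. It read −5.75, −3.60 and −4.44 with NEXN-WT and −4.69, −5.70 and −5.35 with NEXN-S437E. The groups overlapped, and no order is drawn from readings below background. The pore-forming partner of the granzymes was therefore not measured well enough for a fold change.

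The sequences of the dim *Gzmk* probe, the dim *Ctsw* probe and the *Klrd1* probe are given below and were not placed on the message. The *Klrd1* call rests on the probe shown, and the *Gzmk* and *Ctsw* calls rest on the other probe of each gene. The sequences are printed in lower case, 5′ to 3′, with no part capitalised.
Gzmk A_51_P166556: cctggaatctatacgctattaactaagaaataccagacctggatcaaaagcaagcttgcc
Ctsw A_66_P103526: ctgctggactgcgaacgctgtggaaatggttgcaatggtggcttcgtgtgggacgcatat
Klrd1 A_51_P280947: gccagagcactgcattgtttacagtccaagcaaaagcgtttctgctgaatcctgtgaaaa
No member probe shared a run of more than 17 bases with a probe of another gene. The bright *Gzmk* probe and the *Gzma* probe hold the letters AATAAA, found in 9.8% of all non-control probes, and the other 13 member probes do not.

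The receptor genes follow. *Klrd1* encodes CD94, which pairs with NKG2 proteins to read the class I molecule Qa-1. Its probe A_51_P280947 (chromosome 6, 129548391 to 129548450) read −2.59, −2.72 and −1.65 with NEXN-WT and −3.50, −5.00 and −5.46 with NEXN-S437E. The spread was wider in the NEXN-S437E hearts, whose replicate 1 was the highest, and the groups did not overlap. In these hearts the level was at least 1.94-fold lower, and the fitted log2 fold change was −2.33 (SE 0.50, limma adjusted p = 0.119).

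*Klrk1* encodes NKG2D, an activating receptor of NK cells and CD8 T cells for stress-induced ligands. Probe A_66_P120419 (chromosome 6, 129562442 to 129562501) read −2.51, −2.82 and −1.76 with NEXN-WT and −3.77, −4.19 and −3.69 with NEXN-S437E. It was detected in all NEXN-WT hearts and in no NEXN-S437E heart, without overlap, and its level was at least 1.88-fold lower. The fitted log2 fold change was −1.52 (SE 0.28, limma adjusted p = 0.0916).

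The other *Klrk1* probe, A_51_P189451, is annotated to an overlapping interval and shares 20 bases with the first. The shared letters are shown because 1 probe of the pair was detected and the other was not although they overlap.
Klrk1 shared run: ccttgatttcctcccagata
A_51_P189451 was detected in no heart and read −5.42, −4.81 and −3.86 with NEXN-WT and −5.18, −4.69 and −3.68 with NEXN-S437E. The groups overlapped, and no order or fold change is drawn from these readings. The *Klrk1* difference thus rests on 1 of its 2 probes.

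*Klrb1c* had 3 probes, none of them well above background in any heart. A_51_P476687 read −4.49, −4.18 and −3.39 with NEXN-WT and −4.65, −5.49 and −4.42 with NEXN-S437E, with overlap. A_52_P599514 was higher with NEXN-S437E without overlap, by 0.44 on the log2 scale, a size that shrank to 0.06 in the deposited normalized values. A_55_P1979147 differed by −0.07. No direction is drawn for *Klrb1c* or *Ncr1*.

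The NEXN-WT hearts varied among themselves in a pattern that the granule genes shared. Replicate 1 was the lowest NEXN-WT heart for each of the 5 tested granule probes, also in the deposited normalized values. Its array had the highest 75th percentile (272.6, against 110.3 to 174.7 on the others), and before scaling its *Ctsw* signal was the highest of the group while the other 4 stayed the lowest. The mean over these probes was −2.01, −0.60 and −0.34 in the NEXN-WT hearts and −3.06, −3.19 and −3.30 in the NEXN-S437E hearts. *Klrd1* and *Klrk1* did not follow this, with their lowest NEXN-WT value in replicate 2 and their highest in replicate 3. Leaving out NEXN-WT replicate 1 raised the member probes past the adjusted p from 1 to 4 of 8 tested, which were *Nkg7*, *Gzmb*, *Gzmk* and the dim *Ctsw* probe, which entered the test with no NEXN-S437E array detecting it. Over all tested probes the same step raised the count from 37 of 22998 to 127 of 23158. For the member probes, leaving out any other array gave 0.

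**Figure D3:**
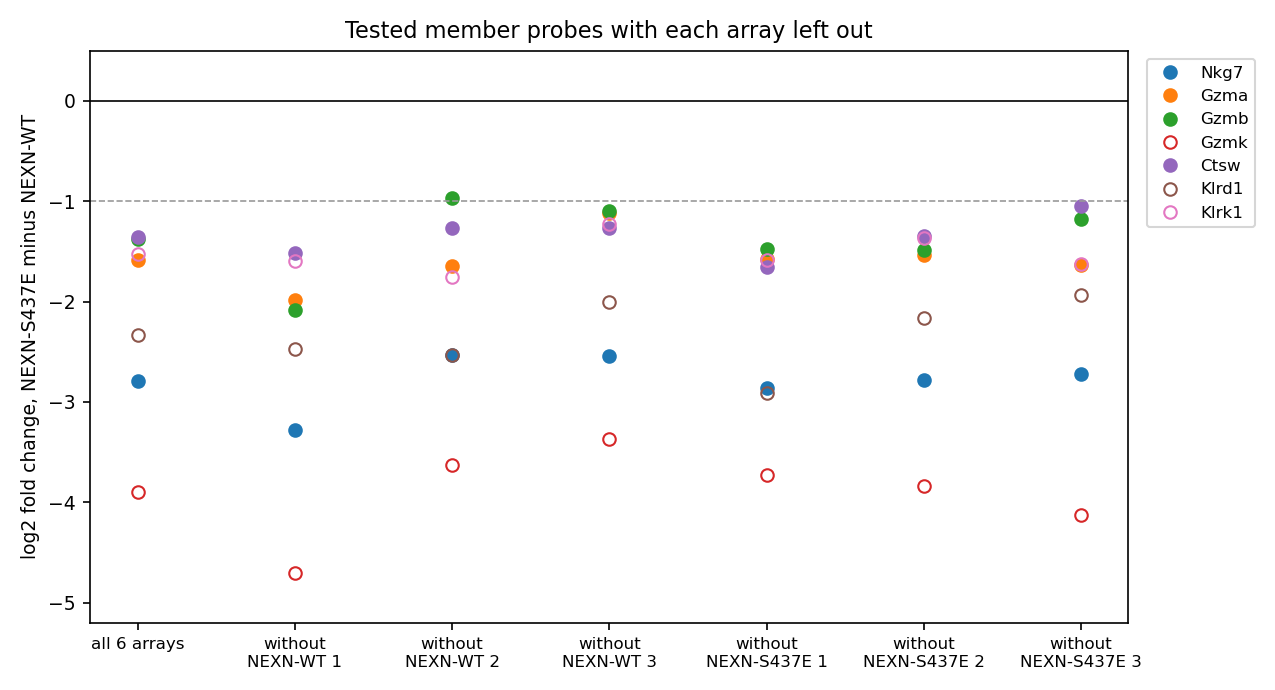
Log2 fold change (NEXN-S437E minus NEXN-WT) of the 7 tested member probes, first over all 6 arrays and then with each array left out in turn. Open points are probes detected in no NEXN-S437E heart, and the dashed line marks the 2-fold threshold. Every value stays below 0, and *Gzmk* moves between −4.70 and −3.37.

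The slide had 2 rows, and row 2 held NEXN-S437E replicates 2 and 3 while row 1 held the remaining 4 arrays. Within row 1 the log2 difference was −2.63 for *Nkg7*, −4.23 for *Gzmk*, −1.60 for *Gzma* and −1.41 for *Klrk1*. It was −1.18 for *Gzmb*, −1.18 for *Klrd1* and −0.75 for *Ctsw*. For 5 of the 7 probes the row 1 array of NEXN-S437E was closer to the NEXN-WT hearts than the mean of the row 2 arrays, by the most for *Klrd1* (−3.50 against −5.23) and *Ctsw* (−2.67 against −3.57), and for *Gzma* and *Gzmk* it was farther from them. With slide row as a block 5 of the 7 probes kept the 2-fold call, *Gzmb* (unadjusted p = 0.197) and *Ctsw* (0.0550) losing it, and *Nkg7* no longer passed the adjusted p (0.255, limma). Row 2 holds 1 group only, so it gives no value of its own. The fit with slide row as a block thus sets NEXN-S437E replicate 1 alone against the NEXN-WT hearts. Calls kept or lost in it rest on that 1 array, and the row 2 arrays add to the spread only.

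Background subtraction bears on these probes because most are dim. Under normexp correction, which adds an offset of 50 and flattens low signals, 2 of the 7 probes kept the 2-fold call, and the log2 fold change was −1.16 for *Nkg7*, −1.11 for *Gzma* and −0.95 for *Gzmk*. The other 4 lay between −0.30 and −0.12. With the deposited normalized values, the differences of the 7 probes lay between −4.11 and −1.40.

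RefSeq promoter windows (GRCm38.p6, from 250 bases before to 50 bases after the start of the gene) were on hand for 8 of the 10 members, with *Klrd1* and *Ctsw* not among them. Those of 4 tested granule genes are printed to show the letters of 3 lymphocyte factor motifs, with matches in capitals. The motifs were TGTGGT for RUNX factors, GGTGTGA for T-box factors such as T-bet, and AGGAAG for ETS factors, searched on both strands, and they were chosen after the promoters had been read.
Nkg7, chr7:43436888-43437187, plus strand: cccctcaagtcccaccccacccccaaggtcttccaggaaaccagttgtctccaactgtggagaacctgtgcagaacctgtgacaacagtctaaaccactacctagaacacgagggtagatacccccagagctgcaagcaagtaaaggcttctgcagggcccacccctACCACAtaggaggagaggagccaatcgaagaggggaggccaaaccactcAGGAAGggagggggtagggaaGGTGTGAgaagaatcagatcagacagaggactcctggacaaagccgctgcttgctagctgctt
Gzma, chr13:113100932-113101231, minus strand: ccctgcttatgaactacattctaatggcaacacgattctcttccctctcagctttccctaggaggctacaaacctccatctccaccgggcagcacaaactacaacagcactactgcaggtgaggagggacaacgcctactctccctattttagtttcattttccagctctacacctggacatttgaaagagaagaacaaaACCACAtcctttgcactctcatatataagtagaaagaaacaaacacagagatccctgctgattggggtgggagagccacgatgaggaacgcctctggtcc
Gzmb, chr14:56262285-56262584, minus strand: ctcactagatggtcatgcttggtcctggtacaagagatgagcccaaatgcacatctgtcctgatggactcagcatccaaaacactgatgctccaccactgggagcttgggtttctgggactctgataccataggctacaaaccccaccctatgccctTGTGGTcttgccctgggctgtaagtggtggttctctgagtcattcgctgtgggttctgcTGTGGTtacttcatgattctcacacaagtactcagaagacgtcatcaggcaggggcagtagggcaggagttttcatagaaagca
Gzmk, chr13:113180916-113181215, minus strand: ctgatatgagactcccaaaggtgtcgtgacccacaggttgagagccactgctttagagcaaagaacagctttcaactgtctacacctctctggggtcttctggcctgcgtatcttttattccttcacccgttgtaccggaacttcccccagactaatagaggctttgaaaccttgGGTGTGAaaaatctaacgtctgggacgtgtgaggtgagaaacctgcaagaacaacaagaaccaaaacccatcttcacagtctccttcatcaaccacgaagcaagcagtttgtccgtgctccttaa
The *Nkg7* window held all 3 motifs, with the T-box letters from 13 to 7 bases before the start. The *Gzma* window held 1 RUNX match, the *Gzmb* window 2 RUNX matches and the *Gzmk* window 1 T-box match. The 8 genes had 9 windows in all, *Ncr1* having 2. The RUNX letters occurred in 8 of these 9 windows and in 16.8% of 32851 promoter windows, the T-box letters in 2 of 9 and in 4.0%, and the ETS letters in 3 of 9 and in 35.4%. Since the motifs were chosen on these promoters, nothing is read from these shares. A match describes letters and no binding was measured.

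The rest of the cytotoxic machinery was read from lists. Among other granzymes and granule contents, no tested probe was called lower and 2 of 8 were called higher, both of *Gzmm*. Granzyme M is a granule protease of innate lymphocytes that cuts after methionine. Its probe A_51_P337925 read −0.97, 0.03 and −0.28 with NEXN-WT and 0.83, 0.85 and 0.88 with NEXN-S437E. The NEXN-S437E hearts lay above all NEXN-WT hearts, the opposite of the member granzymes. The log2 fold changes were 1.26 and 1.14 for the 2 probes, with adjusted p of 0.104 and 0.134 from limma, and 0.735% of all tested probes were called higher by the 2-fold rule. *Srgn*, the proteoglycan that packs granules, differed by 0.19, and the 3 probes of *Ctsc*, which activates granzymes by cutting their leader, differed by −0.10 to −0.06. None of these 4 probes was called.

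The machinery of granule release had 24 probes, of which 13 probes of 12 genes were tested. None of them was called in either direction, 10 were lower with NEXN-S437E, and their median log2 fold change was −0.11. The list was not tested against the members. *Lyst*, the lysosomal trafficking regulator, had the smallest p, with a log2 fold change of −0.64 (limma adjusted p = 0.215). These genes also serve secretion in cells other than lymphocytes.

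Among death ligands, cytotoxic cytokines and granzyme inhibitors, no probe of 8 was called lower and 1 was called higher. This was the *Fas* probe A_52_P73385, for the death receptor that *Fasl* engages, detected in 1 NEXN-WT heart and 3 NEXN-S437E hearts, with a log2 fold change of 1.43 (limma adjusted p = 0.0679). The other tested *Fas* probe differed by 0.37 and was not called, so the probes of this gene disagree in size. *Ifng*, the main cytokine of cytotoxic lymphocytes, was detected in 2 NEXN-WT hearts and in no NEXN-S437E heart and was not tested. Its probe A_52_P68893 read −3.91, −3.00 and −3.12 against −4.53, −4.18 and −4.08.

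Among the other receptors and adaptors, 3 of 10 tested probes were called lower, all of *Hcst*. *Hcst* encodes DAP10, the adaptor through which NKG2D signals. Its 4 tested probes had log2 fold changes of −1.02, −1.01, −0.94 and −1.14, all without overlap between the groups and all detected on the 6 arrays, with adjusted p between 0.0853 and 0.160 from limma. *Tyrobp*, the adaptor DAP12 that myeloid cells also use, differed by −0.15. Of the 30 listed receptor and adaptor genes on the array, 18 were detected in no heart. The ligands of NK receptors showed no called probe among 13, with *Raet1b* (0.49, adjusted p = 0.241) having the smallest p.

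Among transcription factors of cytotoxic lymphocytes, 4 of 13 tested probes were called lower and none higher, and the list's median log2 fold change was −0.39. *Tbx21*, which encodes T-bet, read −3.16, −2.51 and −2.35 with NEXN-WT and −3.29, −5.45 and −4.81 with NEXN-S437E. Its NEXN-WT replicate 1 and NEXN-S437E replicate 1 were near each other, and the level was at least 1.51-fold lower (limma adjusted p = 0.163). Both *Id2* probes, for an inhibitor of E proteins needed by NK cells and used in many other cells, had log2 fold changes of −1.01 and −1.02 (limma adjusted p = 0.109 and 0.0864). *Ikzf3*, for the lymphocyte factor Aiolos, was at least 1.21-fold lower at A_55_P2504196 (limma adjusted p = 0.134). Another of its probes, A_55_P2716832, detected on 2 arrays of each group and not tested, read higher with NEXN-S437E by 0.59.

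For cytokine receptors and their signaling, 2 of 16 tested probes were called lower, both of *Il2rb*. This chain is shared by the receptors for IL-2 and IL-15. Probe A_51_P286496 read −2.30, −2.23 and −2.24 with NEXN-WT and −4.51, −4.20 and −3.72 with NEXN-S437E. The NEXN-WT hearts were almost equal, replicate 1 included, and the level was at least 2.02-fold lower in the NEXN-S437E hearts (limma adjusted p = 0.0208). The cytokine gene *Il15* had log2 fold changes of 0.89 and 0.98 in its 2 tested probes (limma adjusted p = 0.156 and 0.134), under the 2-fold threshold.

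The chemokine axis of these cells had 7 of 15 tested probes called lower, 5 of them past the adjusted p, and none higher. Under normexp 3 were called and with a filter on all 6 arrays 2. *Ccl5*, a chemokine that cytotoxic lymphocytes release, read 1.71, 2.78 and 2.58 with NEXN-WT and −0.15, −0.50 and −0.46 with NEXN-S437E, and fell by 2.73 on the log2 scale (limma adjusted p = 0.0140). The NEXN-WT replicate 1 was again the lowest of its group. *Cxcr6*, a homing receptor of T and NK cells, fell at both probes, by 2.66 at the probe with signal in 2 NEXN-S437E hearts and at least 4.30-fold at the other (limma adjusted p = 0.00379 and 0.00690). *Ccl4* also fell at both probes, by 1.89 at A_51_P509573 and at least 2.02-fold at A_55_P2744077 (limma adjusted p = 0.0140 and 0.00230). *Cxcl10*, an interferon-induced attractant, was called lower by the 2-fold rule only (−2.17, adjusted p = 0.0679), as was its receptor *Cxcr3* (−1.65, adjusted p = 0.0823). In the same list *Cxcl9* (−0.44) and both *Cxcl11* probes (0.31 and 0.30, higher with NEXN-S437E) were not called.

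**Figure D4:**
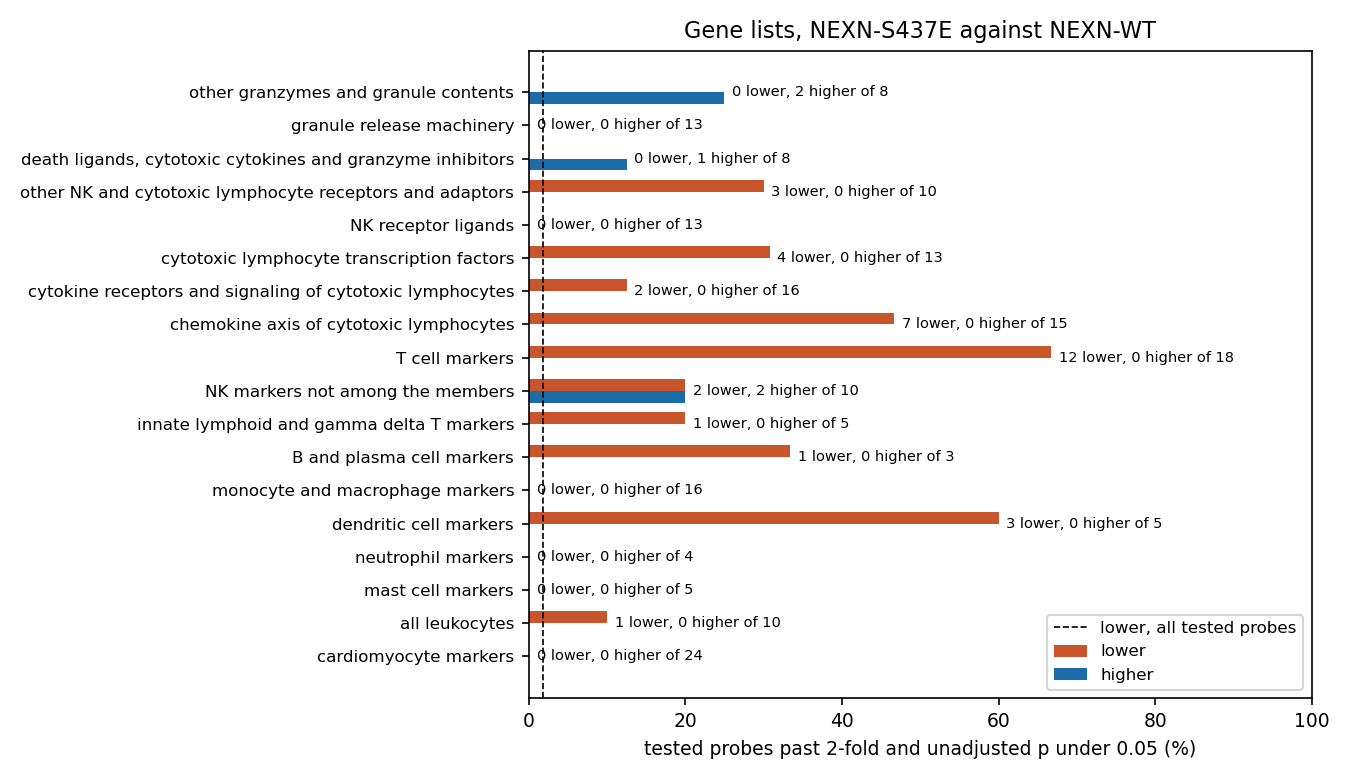
Each pair of bars gives the share of a list's tested probes past 2-fold and an unadjusted p under 0.05, lower (orange) or higher (blue) with NEXN-S437E, with the counts at the right. The dashed line is the 1.78% of all tested probes called lower. T cell markers (12 of 18) and the chemokine axis (7 of 15) have long bars, and granule release, NK receptor ligands, macrophage and cardiomyocyte lists have none.

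Most tested markers of T cells were lower too. Of 18 tested T cell probes 12 were called lower, 5 of them past the adjusted p, and the median log2 fold change was −1.70. Under normexp 1 was called and with the filter on all 6 arrays 4. *Cd3d* and *Cd3g*, chains of the T cell receptor complex, were at least 4.59-fold and at least 2.18-fold lower (limma adjusted p = 0.00112 for both). Another *Cd3d* probe fell by 2.49, *Lck* fell by 2.07 and *Cd6* was at least 2.93-fold lower. The *Cd3e* probes, for a chain of the same complex, differed by −0.20 and −0.55, and *Cd4* by 0.22, none of them called. *Cd28*, a costimulatory receptor detected on all 6 arrays, was higher with NEXN-S437E without overlap (0.50, limma adjusted p = 0.191), and *Cd247*, the zeta chain of the T cell receptor complex, differed by 0.36, neither of them called. The summed linear signal of the list's probes, in units of the array's 75th percentile, ranged from 16.8 to 22.9 with NEXN-WT and from 15.2 to 16.9 with NEXN-S437E, with overlap. This sum follows bright probes such as that of *Thy1* (mean log2 2.68 with NEXN-WT and 2.41 with NEXN-S437E). It says little on dim ones such as *Cd3d* and *Cd3g*. *Cd8b1*, the CD8 beta chain, was called lower (−2.46, adjusted p = 0.0821), while the *Cd8a* probes were detected in at most 2 hearts.

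Lists of other leukocytes varied, and the lists were not tested against each other. None of 16 tested monocyte and macrophage probes was called, with a median of 0.04 and summed signals of 353 to 440 with NEXN-WT and 381 to 416 with NEXN-S437E. Of 10 probes of genes common to all leukocytes 1 was called lower, a *Ptprc* probe (−1.19) that lost the call under most alternatives, and the median was −0.26. Of 3 tested B and plasma cell probes *Jchain* was called, at least 4.13-fold lower (limma adjusted p = 0.00172). The other 2, of the B cell receptor chain gene *Cd79b* (−0.61) and of *Mzb1* (0.16), were not called. Of 5 dendritic cell probes 3 were called lower, with a median of −1.34, and with *Cd209a* at least 1.75-fold lower past the adjusted p (0.00204), *Ccr7* at −1.85 and *Itgax* at least 2.03-fold lower. Of 5 probes for innate lymphoid and gamma delta T cells, *Cd163l1* was called, at least 1.92-fold lower. It was the only probe of this list that was lower, and the list's median was 0.36. None of 4 neutrophil and 5 mast cell probes was called.

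None of 24 cardiomyocyte probes was called, and 1 of them was lower. Their median log2 fold change was 0.39, and their summed signal ranged from 2837 to 3714 with NEXN-WT and from 4397 to 4514 with NEXN-S437E, without overlap. The part of T cell, dendritic cell and cardiomyocyte signals in the differences of the cytotoxic genes was not tested.

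**Figure D5:**
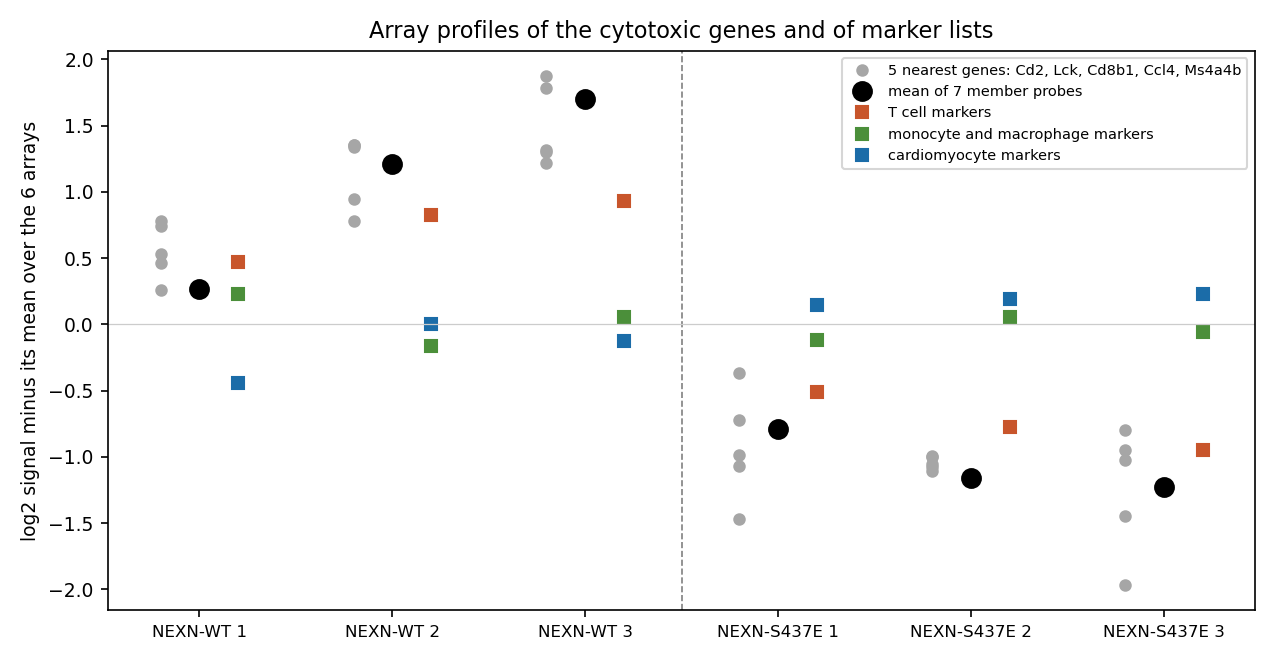
Log2 signal on each array minus its mean over the 6 arrays, for the mean of the 7 tested member probes (black), the 5 genes nearest to it (grey) and the mean of 3 marker lists (squares). A dashed line separates the groups. The members run from 0.27 to 1.70 with NEXN-WT and from −1.23 to −0.79 with NEXN-S437E, the T cell markers follow in a narrower range, and macrophage markers stay within 0.23 of 0.

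The 5 genes whose profile over the 6 arrays lay nearest to the mean of the members were *Cd2*, *Lck*, *Cd8b1*, *Ccl4* and *Ms4a4b*. Likeness was the root mean square difference of centred log2 values over these 6 arrays, which was 0.28, 0.29, 0.33, 0.36 and 0.37 for them and had a median of 1.19 over 20563 probes compared. The mean of the members was itself lower with NEXN-S437E, so likeness to it favours genes that were lower there. *Cd2*, *Lck* and *Cd8b1* are genes of T cells, and *Cd2* and *Lck* are used by NK cells too. Among the members, *Gzma* (0.35) and *Nkg7* (0.38) lay nearest to the common mean and *Gzmk* (1.04), read below background with NEXN-S437E, farthest from it. That mean includes these probes.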

How the data were processed

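The authors hybridised Cy3-labelled RNA of each heart to an Agilent array and extracted it with Feature Extraction 10.7.1.1, per the labels. The deposited intensities are background-subtracted and not normalized between arrays. The authors also deposited normalized log2 values whose 6 columns share 1 distribution, used here as an alternative. How they were normalized is not given in the sources used here. Probe coordinates are on mm9, and no genome was used to place the probes. The promoter windows are on GRCm38.p6.

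Here control and outlier spots were left out, log2 signals were set relative to the 75th percentile of their array, and replicate spots were averaged. Probes detected (well above background) on all 3 arrays of a group were tested with limma 3.58.1 in R 4.3.3 (with the data.table package, 1.17.8), with Benjamini-Hochberg adjustment over all 22998 probes. Of these, 11 lacked a value on at least 1 array, where outlier spots had been dropped. The 2-fold rule with an unadjusted p of 0.05 is the study's. Bounds set the brighter mean against, per array, the larger of its own reading and that array's dimmest detected probe. The number of arrays limits the precision. The test was checked on simulated data. Figures and sequences used Python 3.11.15, pandas 2.3.3, numpy 2.4.6 and matplotlib 3.10.9.

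The members and gene lists were chosen with earlier results of these data known. All members with all their probes are named, and from each list the genes past the adjusted p, up to 3 of the largest changes called by the 2-fold rule, or else the smallest p. The monocyte and macrophage, cardiomyocyte, neutrophil and mast cell lists had no call, and the gene of smallest p is not named for them. Other genes, such as *Ifng*, *Srgn*, *Il15*, *Tyrobp*, *Cd3e*, *Cd4*, *Cd28*, *Thy1*, *Cxcl9*, *Cxcl11*, *Klra8* and *Cd79b*, were named after their values were seen. Of the listed symbols, 13 were not in the array's annotation. Alternatives are given in the closing section.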

Additional observations from a re-analysis of the deposited data

How the results depend on the processing

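The 7 tested members kept a lower level with NEXN-S437E under every alternative in which they were tested. The member probes past the adjusted p were 1 as reported, 0 under quantile normalization, 0 under normexp, 0 with the deposited normalized values, 0 with no filter on dim probes, 0 with the methods' t-test and 0 with slide row as a block. They were 2 with an intensity trend, 7 with array weights, and between 0 and 4 with each array left out. Over all probes the adjusted p passed 37, against 7 with no filter, 20 with a filter on all 6 arrays, 0 with the methods' t-test, which called 412 by the 2-fold rule, 6 of them members, 24 with slide row as a block, 80 with an intensity trend and 668 with array weights. Leaving out each array gave 12 to 127, the highest without NEXN-WT replicate 1. By the 2-fold rule 7 members were called, against 2 under normexp 2 with a filter on all 6 arrays, which removes the other 5 from the test, 5 with slide row as a block, and 6 to 8 with each array left out. Over all probes this rule called 579, against 180 under normexp, 2269 with no filter, 345 with the filter on all 6 arrays, and 368 to 1006 with each array left out, the lowest without NEXN-WT replicate 1 and the highest without NEXN-WT replicate 3. The cause of these shifts was not tested.

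The share of higher among 2-fold calls was 29.2%, against 18.4% with the percentile over detected probes (112 higher, 497 lower), 13.9% under normexp and 72.5% with no filter. The percentile over detected probes moved the median of all probes by −0.11. Same-numbered arrays did not deviate together (correlations of −0.15, −0.03 and −0.18), so no pairing by number was seen. With 3 arrays per group, centred within the group, these correlations cannot exclude one. With the replicate block 37 probes passed the adjusted p and 591 the 2-fold rule, of which 1 and 7 were members, but the call past the adjusted p moved from *Nkg7* (0.0736, limma) to *Gzmk* (0.0472).

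Most members lay near background, so 3 of the 7 tested have a bound in place of a measured fold. The fold changes of *Gzmb* and *Ctsw* rest in part on NEXN-S437E hearts that did not detect them. The 3 hearts per group limit the precision of all members.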
